A study of Mus musculus with 3530 samples.

Results

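The cells described here are somatostatin (Sst) interneurons of the mouse medial prefrontal cortex, 151 of 1189 inhibitory cells (12.7%) and of 3530 single cells in all (4.28%). A cell was inhibitory where its summed read counts scaled to the cell's total reads (CPM) of Gad1 and Gad2 exceeded those of Slc17a7, Neurod2 and Neurod6. Each inhibitory cell then went to the type whose 3 marker genes had the highest mean z-score of log2(CPM + 1) over inhibitory cells, where that mean was above 0, and the Sst type had the markers Sst, Lypd6 and Cort. The same rule gave 471 cells of a Vip type, 242 of a Sncg type and 110 of a Pvalb type, with a Ndnf type and 33 cells without a type making up the rest. Members were thus chosen by measured levels of these genes in the same cells, so differences between Sst cells and other inhibitory cells are given as descriptions with no test.

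The mice were TRAP2;Ai14 animals in all groups, carrying an activity-dependent, tamoxifen-gated Cre recombinase at the Fos locus together with a Cre-dependent tdTomato reporter. Labels name 4 groups in a contextual fear conditioning design: Fear-Recall, Fear-Only, Context-Only and Homecage, with 20 animals in all. The labels used here give no age, sex, or timing of training, tamoxifen or recall, so the reporter is a record of past Cre activity whose window is not stated. Full-length cDNA was made from each cell by Smart-seq2 after papain dissociation, and part of the cells carry a pos or neg sorting label in their titles. The 151 cells comprised 48 from 5 Fear-Recall mice, 50 from 5 Fear-Only mice, 35 from 5 Context-Only mice and 18 from 3 Homecage mice. By sorting label, 76 were pos, 23 neg, 6 came from a plate marked with both, and 46 had no such label. At least 1 reporter read was present in 56 of the 76 pos cells and in 1 of the 23 neg cells.

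Sst interneurons are GABA-releasing cells that mostly contact the dendrites of pyramidal neurons, where they limit excitatory input. They arise, with Pvalb cells, from the medial ganglionic eminence of the embryo and depend on the transcription factors Lhx6, Sox6 and Satb1. In mouse cortex they include Martinotti cells, other local cells, and a rare long-range projecting class that carries Chodl and the nitric oxide synthase Nos1. Sst encodes the precursor of the peptide somatostatin, which acts through inhibitory G protein-coupled receptors. Cort encodes cortistatin, a related peptide that binds the same receptors, and Lypd6 encodes a membrane-anchored protein of the Ly6 family that acts on nicotinic acetylcholine receptors.

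The promoters of the marker genes Sst and Cort, and of Crhbp, the gene with the highest ratio in Sst cells among those outside the rule, are shown because Sst and Cort are in the rule and Crhbp recurs in the results. They are RefSeq windows of 250 bases before and 50 bases after the annotated start on GRCm38.p6, written 5′ to 3′ on the gene's own strand, which is the minus strand for all 3 genes. Capitals mark the cyclic AMP response element TGACGTCA in Sst, and its core TGACG, read on either strand, in Cort and Crhbp.
Sst, chr16:23890795-23891094: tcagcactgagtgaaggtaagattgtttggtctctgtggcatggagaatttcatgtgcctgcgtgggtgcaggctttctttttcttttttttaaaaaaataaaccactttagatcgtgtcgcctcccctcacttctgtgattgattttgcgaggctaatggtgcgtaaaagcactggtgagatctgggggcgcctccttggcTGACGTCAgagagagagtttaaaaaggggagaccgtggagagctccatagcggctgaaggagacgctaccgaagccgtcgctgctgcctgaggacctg
Cort, chr4:149126714-149127013: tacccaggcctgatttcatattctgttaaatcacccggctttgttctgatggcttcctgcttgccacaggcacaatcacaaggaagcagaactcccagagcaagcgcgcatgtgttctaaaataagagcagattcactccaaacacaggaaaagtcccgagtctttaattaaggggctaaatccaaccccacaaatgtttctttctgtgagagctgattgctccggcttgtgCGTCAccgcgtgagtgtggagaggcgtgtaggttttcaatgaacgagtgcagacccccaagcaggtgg
Crhbp, chr13:95444782-95445081: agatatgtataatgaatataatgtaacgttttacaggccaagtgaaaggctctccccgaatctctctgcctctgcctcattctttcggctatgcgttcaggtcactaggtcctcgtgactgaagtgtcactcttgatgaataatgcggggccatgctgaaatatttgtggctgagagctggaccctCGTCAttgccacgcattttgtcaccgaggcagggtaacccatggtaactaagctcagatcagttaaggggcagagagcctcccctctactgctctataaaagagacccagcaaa
The Sst window held 1 full element, which began 48 bases before the start and contains the core on both strands. That element was present in 588 of 32851 mouse promoter windows of the same length (1.79%), and the core on either strand in 6837 (20.8%). The Cort and Crhbp windows each held 1 core and no full element, while the Lypd6, Npy and Chodl windows held neither. These matches describe letters in a window and are not evidence of binding. In GENCODE vM21 on GRCm38, Sst spans chr16:23889573-23890958, Cort chr4:149125034-149126763 and Crhbp chr13:95431371-95444924, all on the minus strand.

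Members had a median of 890643 reads (100176 to 4447545) and 6648 detected genes (1579 to 9234), against 779824 reads and 5448.5 genes in the other inhibitory cells. Over all 3530 cells the totals ran from 100002 to 6840943 reads, and no pair of cells had identical counts.

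The rule's own markers were present in most members, while Sst was missing from a small set. The genes of this paragraph are in the rule, so their levels follow from the selection and are no check of the label. Sst had a median of 10189.5 CPM in members, with quartiles of 4412 and 17903 CPM, and reads in 131 of 151 cells (86.8%), against 20 of 1038 other inhibitory cells (1.93%). Lypd6 was read in 125 members (82.8%) and in 55 other inhibitory cells (5.30%). Cort was read in 102 members (67.5%) and in 24.3% of other inhibitory cells, so it was the least selective of the 3 markers. Gad1 and Gad2, the GABA-synthesizing enzymes, reached 10 CPM in 97.4% and 98.7% of members, and the glutamate transporter gene Slc17a7 in 0.66%.

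In 21 of the 151 members Sst was under 10 CPM, and in 20 of them no Sst read was present. These 21 cells came from 9 animals, and 19 of them beat the next type by less than 0.5 in mean z-score. Their other genes were those of neighbouring types: Vip reached 10 CPM in 71.4% of them, the peptide gene Cck in 85.7%, the serotonin receptor Htr3a in 57.1% and Prox1 in 52.4%, while Lhx6 reached it in 19.05% and Satb1 in 28.6%. They had a median of 5238 detected genes, against 6800 in the 130 members with Sst at 10 CPM or more, at 843731 and 891304 reads. For these cells the label Sst interneuron rests on Cort or Lypd6 alone. They were a larger part of the Fear-Only and Context-Only members than of the Fear-Recall and Homecage members. Some results are also given without them, and others only with them. The 5 members nearest the boundary had gaps of 0.006 to 0.0646 in mean z-score, no Sst or Lypd6 read, and 163.4 to 1748 CPM of Cort. The 5 cells just outside it had gaps of 0.0023 to 0.0416, and 1 of these had 93.7 CPM of Sst. After every cell was thinned to 100000 reads, 150 of the 151 were still members.

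**Figure D1:**
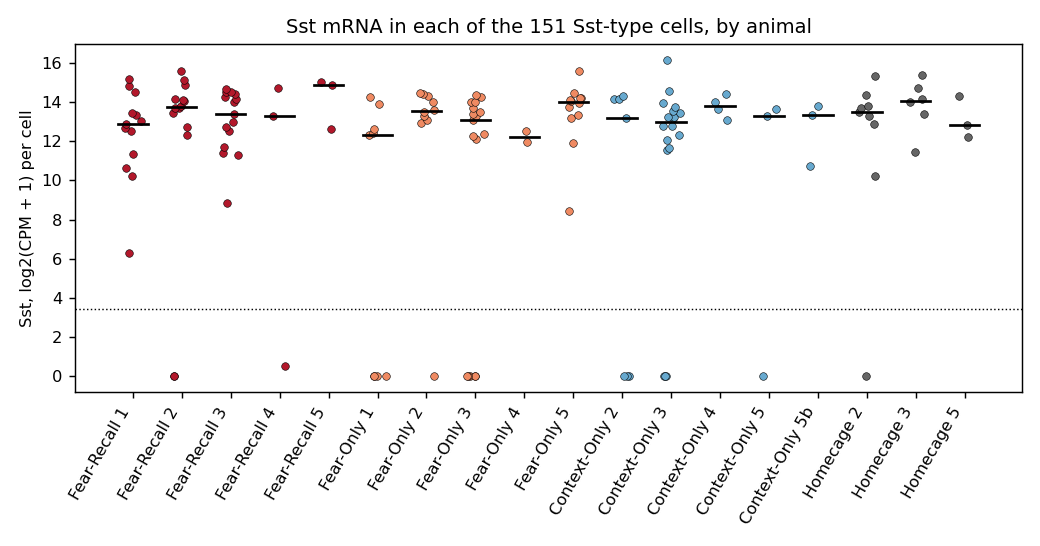
Sst per cell on the log2(CPM + 1) scale in the 151 members, with animals along the horizontal axis and a bar at each animal's median. Points under the dotted line at 10 CPM are the 21 members with little or no Sst, which fall in 9 of the 18 animals.

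For comparisons over animals, counts were summed within an animal where at least 5 members were present, which left 11 animals with 6 to 18 cells and 4597800 to 17692035 reads each. In these sums Sst ran from 6249 to 15602 CPM. It was 7642, 10838 and 9778 CPM in Fear-Recall mice 1 to 3, and 6249, 13427, 8006 and 15602 CPM in Fear-Only mice 1, 2, 3 and 5. It was 12762 and 9789 CPM in Context-Only mice 2 and 3, and 13735 and 14751 CPM in Homecage mice 2 and 3. The Fear-Only values spanned those of the other groups, and both Homecage mice lay above every Fear-Recall and Context-Only mouse. Sst is in the rule, so no test is given. The other inhibitory cells of the same animals had 3.18 ± 4.32 CPM (SD, n = 11).

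Beyond the rule's genes, and among genes averaging at least 50 CPM in the Sst sums, the highest ratios of Sst sums to other inhibitory sums were those of Crhbp, Chodl, Lgals1 and Gpx3. Crhbp, which encodes a secreted protein that binds corticotropin-releasing hormone, had 2336 ± 2654 CPM in Sst sums against 23.3 ± 33.7 CPM in other inhibitory sums (SD, n = 11), with a median log2 ratio over animals of 6.20 on values with 1 CPM added. Its Sst sums ran from 173.6 CPM in Fear-Only mouse 1 to 9964 CPM in Fear-Only mouse 5, and all lay above every other inhibitory sum. Gpx3, a secreted glutathione peroxidase, had 507 ± 302 CPM (135.5 to 1212) against 10.7 ± 11.8 CPM, a log2 ratio of 5.28. The galectin gene Lgals1 had 304 ± 194.7 CPM against 11.8 ± 13.8 CPM, a log2 ratio of 5.54.

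Of 3544 genes that averaged at least 50 CPM in the Sst sums, 25 (0.705%) had no overlap between the 11 Sst sums and the 11 other inhibitory sums, 15 of them higher (0.423%) and 10 lower (0.282%). The 3544 genes were set by level in the Sst sums and include genes of the rule. Genes high only in other inhibitory cells were left out, so the numbers higher and lower cannot be set against each other. The median log2 ratio over the 3544 genes was -0.00113. Among the genes without overlap were Calb1, Lypd6b, Satb1, Grin3a, Rab3b and Gda on the higher side. Calb1, a cytosolic calcium buffer, had 955 ± 595 CPM against 38.8 ± 35.7 CPM. Lypd6b, a paralog of Lypd6, had 240 ± 46.99 CPM (175 to 343) against 13.7 ± 9.21 CPM. Satb1, a chromatin organizer that Sst cells need to mature, had 279.5 ± 76.2 CPM against 19.6 ± 17.9 CPM.

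Other genes near the top were carried by fewer cells or overlapped between the sums. Nos1, the neuronal nitric oxide synthase, ran from 1.74 to 1110 CPM among the Sst sums, with a median log2 ratio of 4.24. Chodl, a C-type lectin-domain membrane protein, averaged 85.1 CPM against 0.17 CPM and was higher in 10 of 11 animals. Th, tyrosine hydroxylase, averaged 140 ± 220 CPM against 3.37 CPM and was higher in 7 of 11. Cartpt, the precursor of the CART peptides, averaged 192.5 ± 99.9 CPM against 8.37 CPM with a log2 ratio of 4.61. The peptide gene Npy was abundant in both, with 5097 ± 3642 CPM in Sst sums against 1028 ± 612 CPM, higher in 11 of 11 animals with a log2 ratio of 2.03.

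Of 20 interneuron lineage transcription factors on a list, 7 had a median log2 ratio above 0 in Sst sums (median of the list -0.55). Some lineage genes were shared with Pvalb-type cells. Lhx6 reached 10 CPM in 70.9% of Sst cells and 60% of Pvalb-type cells, against 0.21% of Vip-type, 0% of Sncg-type and 2.75% of Ndnf-type cells. Sox6 reached it in 49.01% of Sst cells and 29.1% of Pvalb-type cells, and Nxph1, which encodes a secreted ligand of neurexins, in 82.1% and 72.7%. Grin3a, an NMDA receptor subunit gene, divided the types differently, at 74.8% of Sst cells, 9.09% of Pvalb-type and 32.4% of Ndnf-type cells. Crhbp reached 10 CPM in 57.6% of Sst cells, 19.1% of Pvalb-type cells and under 1% of each other type, while Satb1 also reached 10 CPM in 76.5% of excitatory cells.

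Among genes averaging at least 50 CPM in the Sst sums, the lowest ratio was that of Htr3a, a serotonin receptor that marks interneurons of the caudal ganglionic eminence. Genes nearly absent from the Sst sums could not enter this ranking, and Sstr2, with a log2 ratio of -3.51, was among those left out. Htr3a had 91.9 ± 114 CPM in Sst sums against 815 ± 283 CPM in the other inhibitory sums (SD, n = 11), a median log2 ratio of -5.07. Cck had 301 ± 192 CPM against 1991 ± 752 CPM (log2 ratio -2.43), and the tachykinin gene Tac2 had 748 ± 653 CPM against 2800 ± 1142 CPM (log2 ratio -2.08). Id2, Rgs12, Kit, Enpp2, Cbln2, Cryab and Cxcl14 completed the 10 lowest, with log2 ratios of -3.93 to -2.57. Without the 21 members that lacked Sst the ratios were lower still: the log2 ratio was -9.46 for Htr3a, -7.46 for Cck, -8.31 for Tac2 and -9.06 for Cxcl14. Of the 8 Vip interneuron markers, 0 had a median log2 ratio above 0, and their summed level was 105 to 2699 CPM in Sst sums against 3364 to 5995 CPM. Astrocyte markers summed to 76.9 to 530 CPM in Sst sums against 350 to 806 CPM, and vascular markers to at most 11.6 CPM in Sst sums.

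**Figure D2:**
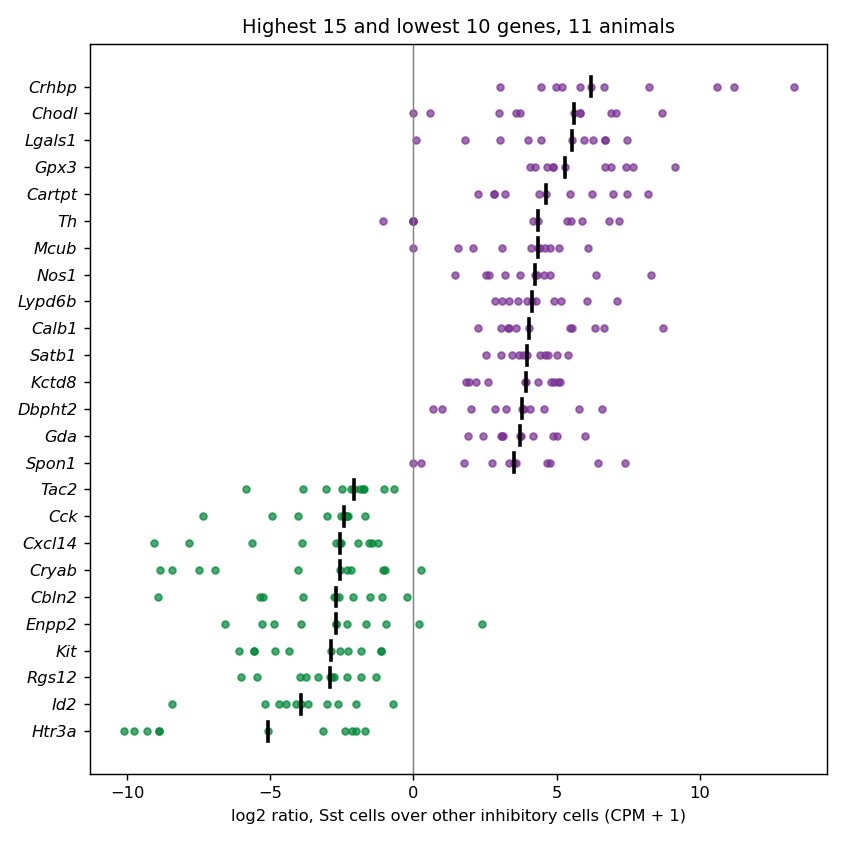
Log2 ratio of Sst sums to other inhibitory sums, with 1 CPM added, for the genes with the 15 highest and 10 lowest medians. Only genes outside the rule that averaged at least 50 CPM in the Sst sums were ranked. Each point is 1 of 11 animals and the bar is the median. Crhbp, with a median of 6.20, lies above 0 in all 11 animals, and Htr3a, with a median of -5.07, lies below 0 in all 11.

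Somatostatin's own receptors differed from each other. Sstr1 had 32.4 ± 34.3 CPM in Sst sums against 3.15 ± 2.63 CPM in other inhibitory sums (SD, n = 11), higher in 10 of 11 animals with a log2 ratio of 2.92. Sstr2 was the reverse, with 10.99 ± 13.03 CPM against 75.7 ± 45.1 CPM and a log2 ratio of -3.51, higher in 0 of 11. The peptide gene Crh had 201.8 ± 134.7 CPM in Sst sums against 549 ± 152.4 CPM and was higher in 0 of 11.

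Across the 151 cells, the genes whose level followed Sst most closely were Npy (Spearman's rho 0.668), Crhbp (0.664), Arhgdig (0.622), Uchl1 (0.608), Tmsb10 (0.587), Rab3b (0.576), Lgals1 (0.524) and Pde1a (0.517), of 8989 genes present in at least 25% of the cells. Within the 130 cells with Sst at 10 CPM or more, rho was 0.694 for Npy and 0.582 for Crhbp, and 0.367 for Rab3b. These correlations are over cells that share animals, plates and depth, and are given without a test.

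Genes of several known Sst subclasses were present among the members, which were not assigned to subclasses. Of 28 subclass genes of cortex, Nxph1 reached 10 CPM in 82.1% of the 151 cells, Npy in 76.2%, Grin3a in 113 cells, Elfn1 in 91, Calb1 in 88 and Crhbp in 87. Genes in fewer cells were Reln, an extracellular matrix protein, and the orphan nuclear receptor Nr2f2, at 67 and 64 cells, Nos1 at 64, Crh at 43, the myosin gene Myh8 at 32, Pdyn at 29, Chodl at 28, Cbln4 at 26 and the substance P receptor Tacr1 at 25. Members without Sst made up 14 of the 43 Crh cells, 12 of the 64 Nr2f2 cells, 11 of the 91 Elfn1 cells, 10 of the Npy cells and at most 7 of the cells with any other gene named here. Chrna2, which marks a deep-layer Martinotti class in mouse cortex, reached 10 CPM in 4 cells, and Hpse in 4.

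Cells with Chodl differed from the other Sst cells in many genes, where the other Sst cells are the remaining members with Sst at 10 CPM or more. The set was chosen after its values were seen, and its values carry no test. Chodl at 10 CPM or more, together with Sst, was found in 28 members (18.5%), all 28 of which also had Nos1 at that level. They came from 12 animals: 13 Fear-Recall, 9 Fear-Only, 3 Context-Only and 3 Homecage cells. In other cells Chodl reached 10 CPM in 0 of 471 Vip-type, 0 of 242 Sncg-type, 6 Ndnf-type, 1 of 110 Pvalb-type and 1 of 2341 excitatory cells. The counts were uneven between animals, with 6 of 12 members in Fear-Only mouse 5 and 1 of 18 in Context-Only mouse 3.

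In the 7 animals that had at least 2 Sst cells with Chodl and 2 without, Npy was higher in the Chodl cells of every animal. It was 17989, 15628 and 21298 CPM in Chodl cells of Fear-Recall mice 1 to 3, against 79.2, 2151 and 700 CPM in their other Sst cells. It was 12835 and 23928 CPM in Chodl cells of Fear-Only mice 3 and 5, against 2278 and 3183 CPM in the other Sst cells. It was 17927 CPM in Chodl cells of Context-Only mouse 4 and 21393 CPM in those of Homecage mouse 2, against 1074 and 709 CPM in the other Sst cells. The lowest Chodl sum lay above the highest other sum, and the median log2 ratio was 4.06.

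Several neuropeptide and receptor genes were higher in the Chodl cells of most animals. Crhbp had 8918 ± 4607 CPM in Chodl cells against 602 ± 803 CPM in the other Sst cells (SD, n = 7), higher in 7 of 7 animals. Nos1 had 1683 ± 468 CPM against 24.96 ± 28 CPM, and Sst itself 19341 ± 4481 CPM against 9855 ± 2998 CPM, both higher in 7 of 7. Chrm2, an inhibitory muscarinic acetylcholine receptor, had 205.2 ± 111.3 CPM against 28.8 ± 47.1 CPM and reached 10 CPM in 92.9% of Chodl cells and 11.8% of the others, with Fear-Recall mouse 2 the exception at 67.8 against 109.4 CPM. Tacr1 reached 10 CPM in 75% of Chodl cells and 2.94% of the others and was higher in 7 of 7 animals. The oxytocin receptor Oxtr reached it in 71.4% and 19.6% and was higher in 6 of 7, with both sums at 0 in Homecage mouse 2. The enkephalin precursor Penk, a gene of the Vip-type rule, reached it in 89.3% and 28.4%, but its sum was lower in Chodl cells of 2 of 7 animals, at 160.1 against 610 CPM in Homecage mouse 2 and 12.6 against 20.5 CPM in Context-Only mouse 4.

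Apart from Chodl itself, the largest median ratios were those of Pcp4, a calmodulin regulator, with 2747 ± 1399 CPM in Chodl cells against 59.7 ± 99.1 CPM in other Sst cells, and of Nnat, an imprinted membrane protein gene, with 1231 ± 654 CPM against 58.4 ± 86.7 CPM (SD, n = 7). Their median log2 ratios were 10.43 and 8.43. Mcub, an inhibitory subunit of the mitochondrial calcium uniporter, reached 10 CPM in 85.7% of Chodl cells and 4.90% of the others.

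Genes that were low or missing in Chodl cells included the calcium buffer, an extracellular matrix gene and a somatostatin receptor gene. Calb1 had 15.7 ± 41.7 CPM in Chodl cells against 1238 ± 684 CPM in the others (SD, n = 7), and in 6 of the 7 animals its Chodl sum was 0. Reln reached 10 CPM in 0 of 28 Chodl cells and in 63.7% of the others, Nr2f2 in 0 of 28 and in 51.0%, and the zinc transporter Slc30a3 in 0 of 28 and in 80.4%. Sstr1 had 0.65 CPM in Chodl cells against 48.2 CPM in the others and was lower in 7 of 7 animals. Of the rule's own markers, Cort had 920 ± 495 CPM in Chodl cells against 290 ± 384 CPM and was higher in 6 of 7 animals, with Fear-Recall mouse 2 the exception at 730 against 1087 CPM. Lypd6 had 46.2 ± 43.5 CPM against 386 ± 276.6 CPM and was lower in 7 of 7. Median depth was 775908 reads in Chodl cells and 909369 reads in the others. Reporter reads were present in 15 of 28 Chodl cells (53.6%) and 55 of 102 other Sst cells (53.9%), and within the pos label in 12 of 15 (80%) and 37 of 48 (77.1%).

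**Figure D3:**
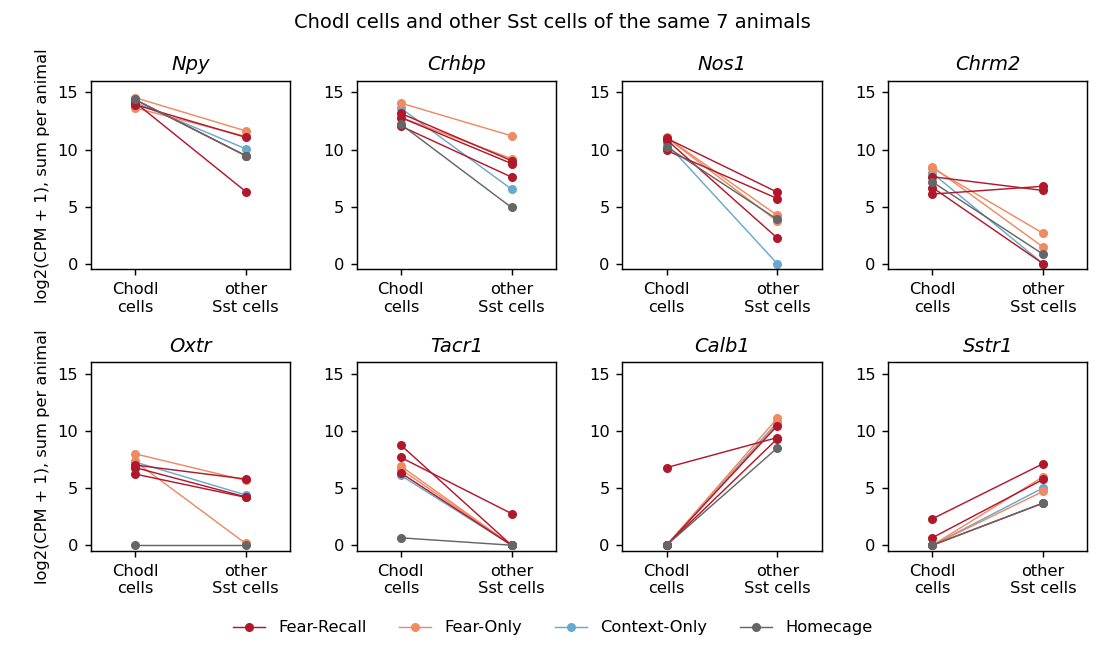
Level of 8 genes in sums of Chodl cells (left) and other Sst cells (right) of 7 animals, on the log2(CPM + 1) scale; each line joins the sums of 1 animal. Npy, Crhbp and Nos1 are higher in the Chodl cells of all 7 animals and Calb1 and Sstr1 lower, while Chrm2 is lower in 1 animal and Oxtr is at 0 in both sums of 1 animal.

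A second set, 32 cells with Myh8 at 10 CPM or more from 14 animals, shared no cell with the Chodl set and was likewise chosen after its values were seen. Its other Sst cells are again the remaining members with Sst at 10 CPM or more. Nr2f2 reached 10 CPM in 96.9% of Myh8 cells and 21.4% of the other Sst cells, Reln in 93.8% and 35.7%, and Calb1 in 100% and 55.1%. In 8 animals with sums of both kinds, Cartpt had 459 CPM in Myh8 cells against 96.3 CPM in the others and was higher in 8 of 8, with a median log2 ratio of 5.997. The phospholipid phosphatase gene Plpp4 had 259 CPM against 31.7 CPM and the neurturin receptor Gfra2 142.96 CPM against 30.99 CPM, both higher in 8 of 8. The orphan receptor Gpr83 had 527 CPM against 150 CPM and was higher in 7 of 8. The growth factor Ptn had 13.1 CPM in Myh8 cells against 801 CPM in the others and Nos1 9.29 CPM against 461 CPM. Reporter reads were present in 20 of 32 Myh8 cells (62.5%) and 51.0% of the other Sst cells, and within the pos label in 13 of 17 (76.5%) and 36 of 46 (78.3%).

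How many Sst cells each animal gave was compared as their percentage of inhibitory cells, in animals with at least 10 inhibitory cells. The percentage was 28.3, 9.15, 11.5, 9.38 and 10 in Fear-Recall mice 1 to 5, and 50, 12.05, 11.8 and 23.1 in Fear-Only mice 1, 2, 3 and 5. It was 9.33, 16.7, 9.09, 6.67 and 5.88 in Context-Only mice 2, 3, 4, 5 and 5b, and 13.4, 12.2 and 6.25 in Homecage mice 2, 3 and 5. The highest values were those of Fear-Only mouse 1, with 9 of 18 inhibitory cells, and Fear-Recall mouse 1, and neither mouse's cells have a pos or neg label. The mean was 13.6 ± 8.22% in Fear-Recall against 9.53 ± 4.26% in Context-Only (SD, n = 5 each), a difference of 4.12 percentage points (two-sided exact permutation test over animals, p = 0.421, the smallest possible being 0.00794). Without Fear-Recall mouse 1 the difference was 0.466 points. Its sign turned with pos cells alone, at -2.97 points, and within the 4 mouse numbers that both groups share, at -0.445 points (two-sided exact sign-flip test, p = 0.875, the smallest possible being 0.125).

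**Figure D4:**
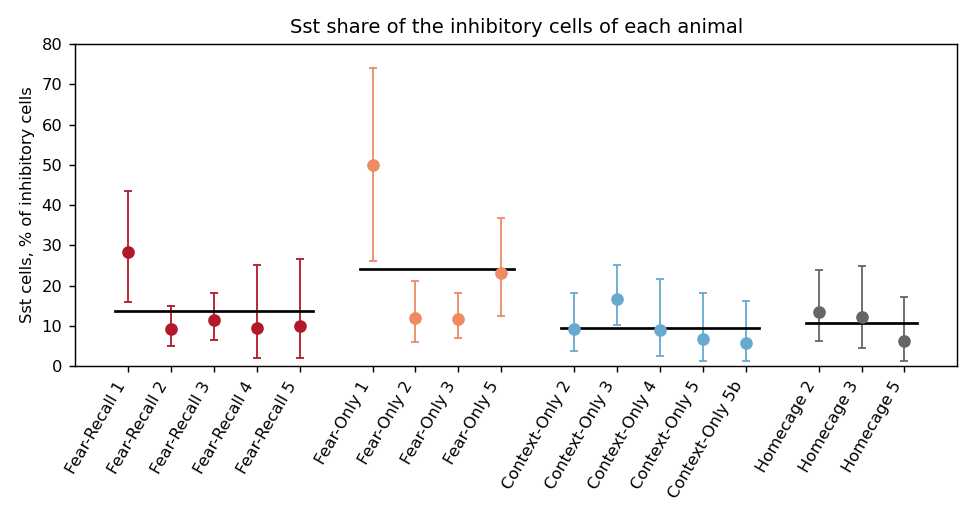
Sst cells as a percentage of inhibitory cells in each animal, by group, with exact (Clopper-Pearson) 95% binomial intervals, which cover counting error only, and a line at each group's mean. Fear-Recall averages 13.6% and Context-Only 9.53%, with overlapping animals.

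Sst cells were no larger a fraction of pos-sorted than of neg-sorted inhibitory cells beyond the spread between animals. In the 6 animals where both labels could be used, the percentage of Sst cells in pos against neg cells was 9.40 against 8.33 in Fear-Recall mouse 2 and 9.01 against 25 in Fear-Recall mouse 3. It was 11.3 against 15 in Fear-Only mouse 3, 8.06 against 15.4 in Context-Only mouse 2, 17.2 against 13.3 in Context-Only mouse 3 and 12.5 against 14.8 in Homecage mouse 2. The mean was 11.2 ± 3.33% in pos against 15.3 ± 5.42% in neg cells (SD, n = 6), a difference of -4.07 ± 7.005 points (two-sided exact sign-flip test, p = 0.25, the smallest possible being 0.0312). As a percentage of all cells, excitatory cells included, the difference was 1.24 points.

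Within the pos label, the frequency of reporter reads in Sst cells did not differ from that in the other inhibitory cells beyond the spread between animals. A reporter read was present in 64.2 ± 33.2% of Sst cells against 59.6 ± 32.4% of other inhibitory cells (SD, n = 7 animals), a difference of 4.52 ± 16.3 points that was positive in 4 of 7 (two-sided exact sign-flip test, p = 0.516, the smallest possible being 0.0156). Between animals the frequency in Sst cells ran from 20% in Context-Only mouse 2 and Homecage mouse 2 to 100% in Fear-Recall mouse 3. Pooled over animals it was 56 of 76 Sst cells, 73.7% (exact 95% interval 62.3 to 83.1), against 72.5% of Vip-type, 69.01% of Sncg-type, 67.4% of Ndnf-type and 67.3% of Pvalb-type cells. The interval covers counting error only, without the spread between animals, and the pooled values carry no test.

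Sst cells with reporter reads were then compared with those without, within the same animal. This comparison asks what distinguishes cells with past Cre activity. Sums of at least 3 cells of each kind were available in 7 animals, and animal was a block in the fit. Of 9856 genes tested with edgeR's quasi-likelihood test, 0 had an adjusted p under 0.05 (0%), the smallest being 0.996. At an unadjusted p under 0.05 there were 349 genes higher (3.54%) and 49 lower (0.497%), and DESeq2 called 89, of which 85 were higher. Reporter-read cells had more detected genes, a median of 7075 against 5611 in reporter-free cells, at 890643 and 914210 reads, and 56 of them were pos and 1 neg, against 20 and 22 of the reporter-free cells. The part of these in the gene differences was not tested.

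Crhbp had the smallest p of the genes higher in reporter-read cells, without passing the adjustment. On the CPM scale with TMM-normalized library sizes it was 719, 4765 and 2334 CPM in reporter-read cells of Fear-Recall mice 1 to 3, against 144.3, 263 and 422 CPM in their reporter-free cells. It was 3626 and 1435 CPM in reporter-read cells of Fear-Only mice 2 and 3, against 408 and 1743 CPM in reporter-free cells. It was 1271 CPM in reporter-read cells of Context-Only mouse 3 and 1794 CPM in those of Homecage mouse 3, against 698 and 198.9 CPM in reporter-free cells. Reporter-read cells were thus higher in 6 of 7 animals, Fear-Only mouse 3 being the exception, with a log2 fold change of 2.32 ± 0.45 (SE; edgeR, unadjusted p = 0.000201, adjusted p = 0.996).

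Gpx3 and Pld3, a lysosomal exonuclease of the phospholipase D family, were higher in reporter-read cells of 7 of 7 animals. Gpx3 had 777 ± 413 CPM in reporter-read cells against 420 ± 263 CPM in reporter-free cells (log2 fold change 0.97 ± 0.23), and Pld3 1282 ± 323 CPM against 843 ± 280 CPM (0.63 ± 0.15). Acsl4, a fatty acid-activating enzyme, had 227.3 ± 99.1 CPM against 107.1 ± 78.6 CPM (1.31 ± 0.30). Npy had 5208 ± 3343 CPM against 1763 ± 1328 CPM (1.75 ± 0.46) but was lower in reporter-read cells of 2 of the 7 animals. None of these passed adjustment in edgeR's test, while DESeq2 called Crhbp, Gpx3 and Acsl4.

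The list of immediate early genes, a class that neurons switch on within minutes of activity, was split in this comparison. Of 38 on the list 24 were tested, 0 were called, 11 had a log2 fold change above 0 and the median was -0.28, against 0.23 and 65.2% above 0 over the whole set tested. At an unadjusted p under 0.05, 3 were higher and 5 lower. Egr1, a zinc finger factor of this class, had 192.8 ± 111.2 CPM in reporter-read cells against 336 ± 260.5 CPM in reporter-free cells, lower in 6 of 7 animals (log2 fold change -0.72 ± 0.25). Jun had 142.4 ± 75.4 CPM against 299.3 ± 130.8 CPM (-1.16 ± 0.47). The list is wider than that class and also holds genes of secreted products. Of these, the secretory granule gene Scg2 and the growth factor gene Vgf were higher, at 0.73 ± 0.30 and 2.00 ± 0.78.

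Of the 28 Sst subclass genes 18 were tested, 0 were called, and 16 had a log2 fold change above 0 with a median of 2.01. Of 14 neuropeptide genes 11 were tested, 0 called and 9 above 0 with a median of 0.73. Among receptors for peptides and modulators, 14 of 32 were tested, 0 called and 11 above 0 with a median of 1.49, Oxtr at 3.65 ± 1.46. Ribosomal protein genes were measured in full, with 11 of 52 above 0 and a median of -0.18, and 0 called.

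**Figure D5:**
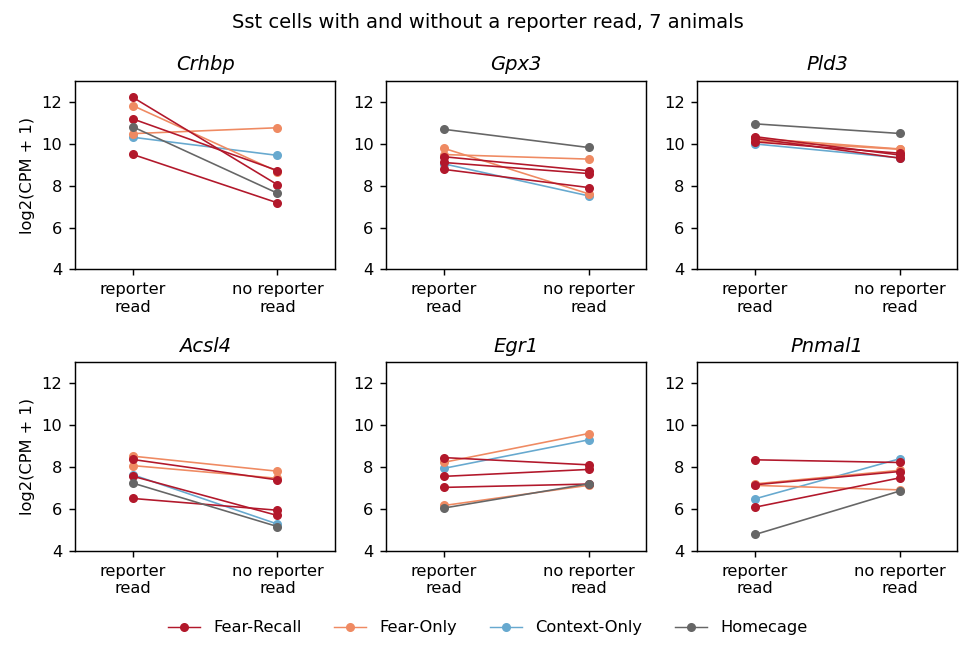
Level of 6 genes in sums of reporter-read Sst cells (left) and reporter-free Sst cells (right) of 7 animals, on the log2(CPM + 1) scale; each line joins the sums of 1 animal. Gpx3 and Pld3 are higher in reporter-read cells of all 7 animals, Crhbp in 6 and Egr1 lower in 6, and none passed adjustment over 9856 genes in edgeR's test.

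The 4 groups were compared over the 11 animal sums: 3 Fear-Recall, 4 Fear-Only, 2 Context-Only and 2 Homecage mice. These comparisons ask what conditioning and recall left in Sst cells, and several share control animals, so their gene lists are not independent of each other. Of 14231 genes tested with edgeR's quasi-likelihood test, 0 had an adjusted p under 0.05 (0%) in each of the 6 comparisons. The smallest adjusted p was 0.963 for Fear-Recall against Context-Only, 1 for Fear-Recall against Fear-Only, 0.926 for Fear-Only against Context-Only, 0.498 for Fear-Recall against Homecage, 0.443 for Fear-Only against Homecage and 0.683 for Context-Only against Homecage. A single cell held 11.05 to 36.8% of the reads of a sum, and median reads per cell ran from 286162 in Fear-Recall mouse 1 to 1263980 in Context-Only mouse 2.

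At an unadjusted p under 0.05, Fear-Recall against Context-Only gave 503 genes (1.65% of those tested higher and 1.88% lower), and DESeq2 called 55. Fear-Recall against Fear-Only gave 422 (1.8% higher and 1.17% lower), with 16 called by DESeq2. Fear-Only against Context-Only gave 548 (1.41% higher and 2.45% lower), with 44 called by DESeq2. The comparisons with Homecage gave more: 1383 in Fear-Recall (6.22% higher and 3.5% lower), 1529 in Fear-Only (6.11% and 4.63%), and 882 in Context-Only (4.46% and 1.74%). DESeq2 called 639, 710 and 320 in these, from 2 Homecage mice with 9 and 6 cells.

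The genes of smallest p in Fear-Recall against Context-Only are given with values, none having passed adjustment in edgeR's test; CPM here are again on TMM-normalized library sizes. Nnat was 371, 608 and 178.2 CPM in Fear-Recall mice 1 to 3, against 111.999 and 90.5 CPM in Context-Only mice 2 and 3 (log2 fold change 1.93 ± 0.59, SE). The groups did not overlap, and Fear-Only and Homecage mice lay between 155.8 and 266.8 CPM. Nnat also marked the Chodl cells, and those were 3 of 13, 4 of 14 and 4 of 15 members in these Fear-Recall mice and 0 of 7 and 1 of 18 in these Context-Only mice, and their part in the difference was not tested. Cs, citrate synthase, was 315, 271.1 and 199.4 CPM in Fear-Recall mice against 35.3 and 95.1 CPM in Context-Only mice (2.01 ± 0.65). Gabrg1, a GABA-A receptor subunit, was 18.1, 19.6 and 27.4 CPM against 0 and 0.389 CPM. The calcium release channel gene Ryr2 averaged 49.5 CPM in Fear-Recall against 4.28 CPM in Context-Only.

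Lower in Fear-Recall were Nr2f1, an orphan nuclear receptor, at 5.94, 8.9 and 19.6 CPM against 209 and 52.01 CPM in Context-Only (log2 fold change -3.50 ± 0.87), and Tmem107, a ciliary transition zone gene, at a mean of 5.69 against 88.0 CPM (-3.95 ± 0.9998). Ramp1, a co-receptor for the peptide CGRP, averaged 0.505 CPM in Fear-Recall against 126 CPM in Context-Only. Cryab, a small heat shock protein, was at 0 in all 3 Fear-Recall mice against 446 and 29.6 CPM, and Akr1c18 at 0 against 258.2 and 8.17 CPM. Cryab, Ramp1 and Nr2f1 were more frequent in the members without Sst. Cryab reached 10 CPM in 12 of the 21 and in 3 of the 130 others, and Ramp1 in 8 of the 21 and 8 of the 130. Nr2f1 reached it in 12 of the 21 and 40 of the 130, while Tmem107 did so in 2 of the 21 and 45 of the 130. Within Context-Only, a single cell held 63.99% of the Nr2f1 reads, and a single cell held 50.9% of the Tmem107 reads. Akr1c18 came from 2 cells, 1 of which held 94.4% of its reads. Over the members with Sst at 10 CPM or more the log2 fold change of Ramp1 was 5.59, of opposite sign. Of the genes named in this comparison, DESeq2 called Gabrg1, Nr2f1, Tmem107, Ramp1 and Cryab.

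Gene lists showed no call in this comparison, in which 56.7% of the 14231 genes were above 0 and their median was 0.21 on the log2 scale. Of the Sst subclass genes 15 of 27 were above 0 (median 0.22). GABA synthesis, transport and receptor genes had 16 of 20 above 0 (median 0.67). Peptide and modulator receptors had 18 of 26 above 0 (median 1.03), glutamate receptors and scaffolds 18 of 34 (median 0.07), and ion channels 25 of 44 (median 0.43). Among channels, Kcnc2, a fast potassium channel, had 273.5 ± 130.1 CPM in Fear-Recall against 91.7 ± 5.32 CPM in Context-Only (1.58 ± 0.64). Grin3a had 113 ± 14.98 CPM in Fear-Recall against 333 ± 242 CPM in Context-Only (-1.56 ± 0.61; edgeR, unadjusted p = 0.0222). Chodl had 95.3 ± 6.95 CPM against 5.78 ± 7.32 CPM (4.03 ± 2.04; edgeR, unadjusted p = 0.0681).

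Genes of the translation and respiration machinery lay mostly below the all-gene median. In Fear-Recall against Context-Only, 0 of 52 ribosomal protein genes were above 0 (median -0.73) and 7 of 43 oxidative phosphorylation genes (median -0.83), with 0 called. Against Homecage the ribosomal median was -1.06 in Fear-Recall and -1.17 in Fear-Only, again 0 of 52 above 0 and 0 called, with 15 and 22 lower at an unadjusted p under 0.05. In Fear-Recall against Fear-Only it was 0.08, with 33 of 52 above 0. The ribosomal genes varied strongly within Context-Only: Rps9 was 304 CPM in the lower of its mice and 1205 CPM in the higher.

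No immediate early gene passed edgeR's test between groups. In Fear-Recall against Context-Only 12 of 36 were above 0 (median -0.39), in Fear-Recall against Fear-Only 15 of 36 (median -0.12), and in Fear-Only against Context-Only 15 of 36 (median -0.14), with 0 called in each. Against Homecage more were above 0: 26 of 36 in Fear-Recall (median 0.99), 27 of 36 in Fear-Only (median 0.97) and 24 of 36 in Context-Only (median 0.76), beside 56.4%, 57.2% and 50.5% of all genes tested. At an unadjusted p under 0.05 these held 2, 1 and 2 higher genes and 0 lower, and DESeq2 called Btg2 and Dusp4 in each of the 3. The 3 comparisons share both Homecage mice. Fos averaged 334 CPM in Fear-Recall, 344 CPM in Fear-Only, 334 CPM in Context-Only and 186.8 CPM in Homecage. Arc, which acts at synapses, was 175.99, 149.4 and 83.7 CPM in Fear-Recall mice, 0, 89.3, 31.9 and 67.7 CPM in Fear-Only mice, 13.3 and 38.8 CPM in Context-Only mice and 29.6 and 0 CPM in Homecage mice. The Fear-Recall values lay above those of Context-Only and Homecage and overlapped those of Fear-Only. The log2 fold change against Context-Only was 2.39 ± 1.81 (edgeR, unadjusted p = 0.208, adjusted p = 0.966), that against Fear-Only 1.53 ± 1.37 (p = 0.284) and that against Homecage 3.19 ± 1.90 (p = 0.113).

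In Fear-Recall against Fear-Only the smallest p among lower genes included Nr4a1, an immediate early nuclear receptor, at 16.3, 29.6 and 66.2 CPM in Fear-Recall mice against 333, 170.7, 53.2 and 273 CPM in Fear-Only mice (log2 fold change -2.47 ± 0.83). Cryab was at 0 in 3 Fear-Recall mice and averaged 55.1 ± 35.3 CPM in 4 Fear-Only mice, and Rgs12, a regulator of G protein signalling, had 14.7 against 98.1 CPM (-2.73 ± 0.89). Rgs12 also reached 10 CPM in 16 of the 21 members without Sst and 19 of the 130 others. The actin-binding gene Shroom2 was the higher gene of smallest p, with 94.2 CPM in Fear-Recall against 17.3 CPM in Fear-Only (2.44 ± 0.73). As in the other group comparisons, mouse number was not in the fit that gave these values. In Fear-Only against Context-Only, Cisd2, an iron-sulphur protein gene, had 115.2 against 22.6 CPM (2.35 ± 0.88) and Fchsd2 51.5 against 7.61 CPM, while Tmem107 had a log2 fold change of -3.02 ± 0.88, and 0.13 over reporter-read cells alone.

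Against Homecage, the tetraspanin gene Tspan33 averaged 32.8 ± 14.3 CPM in 3 Fear-Recall mice, 34.7 CPM in 4 Fear-Only mice and 17.2 CPM in 2 Context-Only mice, with both Homecage mice at 0. Abt1, Cln8 and Pde9a had the same pattern, at 20.96, 23.1 and 18.2 CPM in Fear-Recall with both Homecage mice at 0. Tspan33 reached 10 CPM in 49 of the 130 members with Sst and in 0 Homecage cells. Magoh, a core protein of the exon junction complex, had 29.4 CPM in Fear-Only against 316 CPM in Homecage (log2 fold change -3.42 ± 0.80), and the prefoldin subunit Pfdn5 223 ± 74.5 against 999 ± 585 CPM (-2.16 ± 0.54). Cttnbp2, a regulator of dendritic spines, had 72.3 CPM in Context-Only against 0.554 CPM in Homecage (7.005 ± 1.51). None of these passed adjustment in edgeR's test, while DESeq2 called each of them in the comparisons named.

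Markers of other types within the Sst sums are given by group as ranges over 2 to 4 animals, many of which overlapped. The sums include the members without Sst, and no test was run on them. Vip markers summed to 268 to 1218 CPM in Fear-Recall, 471 to 2264 CPM in Fear-Only, 1286 to 1512 CPM in Context-Only and 105 to 2699 CPM in Homecage. Sncg and Cck markers summed to 99.4 to 608 CPM in Fear-Recall, 526.5 to 951 CPM in Fear-Only, 648 to 669 CPM in Context-Only and 43.6 to 516.9 CPM in Homecage. Lamp5 and Ndnf markers separated some groups, at 104.4 to 189.8 CPM in Fear-Recall and 94.9 to 160.3 CPM in Fear-Only, against 193.97 to 519 CPM in Context-Only and 200.5 to 232.97 CPM in Homecage. Pvalb markers summed to 1008 to 2357 CPM in Fear-Recall, 695 to 1549 CPM in Fear-Only and 455 to 1162 CPM in Context-Only, against 437 to 526.4 CPM in Homecage. Microglia markers summed to 36.4 to 81.8 CPM in Fear-Recall and 43.7 to 98.7 CPM in Fear-Only, against 1.57 to 35.9 CPM in Context-Only, with 7 of 10 at 0, and 3.28 to 9.25 CPM in Homecage, with 9 of 10 at 0. In Fear-Recall 5 of 10 were at 0, namely C1qa, C1qc, Csf1r, Ctss and Aif1. The rest, with Cx3cr1, P2ry12, C1qb and Tmem119 among them, were not at 0 in every Fear-Recall mouse. Astrocyte markers summed to 76.9 to 480 CPM in Fear-Recall, with 2 of 10 (Aqp4 and Gfap) at 0. They summed to 115.9 to 205.6 CPM in Context-Only, with 6 of 10 at 0. Reporter-read cells were 9, 7 and 11 of the cells in the Fear-Recall sums, 9, 7, 9 and 1 in Fear-Only, 1 and 15 in Context-Only and 1 and 3 in Homecage. The part of these markers and of the reporter-read cells in the gene values was not tested.

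Whether the Fear-Recall difference from Context-Only was another in Sst cells than in the remaining inhibitory cells of the same animals was tested as an interaction over 3 Fear-Recall and 2 Context-Only mice. Of 15367 genes, 0 had an adjusted p under 0.05 (0%; edgeR, smallest 0.79), with 322 at an unadjusted p under 0.05 (1.35% higher and 0.748% lower), and DESeq2 called 46. Sparcl1, a secreted matrix protein, was at -1.40 ± 0.30 (SE). Cartpt was at -4.70 ± 0.81, the calcium-dependent secretion factor Cadps2 at 9.18 ± 1.36, and the potassium channel-interacting protein Kcnip4 at 4.14 ± 1.10 on the log2 scale, none of them past adjustment in edgeR's test, while DESeq2 called Cartpt, Cadps2 and Kcnip4. Leaving out Context-Only mouse 3 gave 303 calls and leaving out Context-Only mouse 2 gave 0, each with a single Context-Only animal left that is assumed to vary like the Fear-Recall mice.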

How the data were processed

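Single-cell counts of reads per gene were used as the authors deposited them, as a table of raw counts with a column for each of 3530 cells. Per the submitters' processing notes, Bowtie 0.12.2 and the builds mm8 and mm10 were involved, with no role or order given, while the sources used here do not name the counting step. Cells had been sorted singly, so no doublet caller was run. No further filter on cells was applied, and 0 columns of values were unused.

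From these counts the rule described above chose the cells. The members, gene lists and tests were chosen with earlier results of these data known. Counts were summed per animal (at least 5 Sst cells) and tested with edgeR 4.0.16 in R 4.3.3: filterByExpr (minimum count 10, total 15), TMM normalization, quasi-likelihood test, Benjamini-Hochberg adjusted p under 0.05. DESeq2 1.42.0 was an alternative. The reporter comparison used sums of at least 3 cells, a choice made after seeing that only 2 animals had both sums at 5 cells. Named genes were the 5 of smallest p in each direction averaging at least 4 in log2 CPM, outside the 20 genes of the rule, and list members of smallest p. For the description against other inhibitory cells they were the 15 highest and 10 lowest ratios among genes averaging at least 50 CPM in the Sst sums. Some of the genes so chosen are not reported here. Lists of genes came from textbook markers and pathways. Detection means 10 CPM or more. Scripts were tested on simulated data. Python 3.11.15, numpy 2.4.6, pandas 2.3.3 and scipy 1.17.1 gave the descriptions, exact tests and exact binomial intervals. Gene positions are from GENCODE vM21 and promoters from RefSeq. Animals are the replicates, so p-values measure the spread between animals. Mouse numbers recur across groups, but the labels do not say that a number marks a shared litter or day. The deviations of same-numbered sums from their group means correlated above 0.1 in 11 of 13 pairs (-0.081 to 0.419). This includes all 3 Fear-Recall and Fear-Only pairs (0.19 to 0.409), beside -0.396 to 0.162 between different numbers of these groups. They are taken as paired from the data, but the fold changes, SE and p given for this comparison come from the fit without mouse number. The block with mouse number was an alternative and gave 0 calls. Sums of other groups share 2 numbers at most. In a group of 2 animals the deviations mirror each other, so its correlations are not independent.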

Additional observations from a re-analysis of the deposited data

Results flagged for a closer look

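Of 46 groups of 4 to 10 animals examined, 11 had a highest or lowest animal far from the rest, measured by its gap to the nearest other animal relative to the group's range. Chance flags about 1 in 20 groups where values are normally distributed and groups independent. Most groups here held unlogged CPM of genes chosen for small p, with reporter-read and reporter-free sums from the same animals, so that rate need not hold. All flags were at the high end. Sst cells were 28.3% of inhibitory cells in Fear-Recall mouse 1, above the other Fear-Recall mice. The remaining flags were in the comparison of reporter-read with reporter-free Sst cells, in CPM on TMM-normalized library sizes over 7 animals. Homecage mouse 3 was highest for Pld3, at 1984 CPM in reporter-read and 1443 CPM in reporter-free cells, and for Gpx3 at 1655 CPM in reporter-read cells. Fear-Recall mouse 1 stood apart for Gpm6a, at 3066 CPM in reporter-read and 2460 CPM in reporter-free cells, and for Pnmal1 at 326 CPM in reporter-read cells. Crhbp stood apart in reporter-free cells of Fear-Only mouse 3 at 1743 CPM, the animal that ran against the others. Sag stood apart at 131 CPM in reporter-read cells of Fear-Recall mouse 2 and at 12.4 CPM in reporter-free cells of Context-Only mouse 3, and Asxl2 at 25.9 CPM in reporter-read cells of Context-Only mouse 3.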

How the results depend on the processing

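With DESeq2 in place of edgeR, 55 genes were called for Fear-Recall against Context-Only, 16 for Fear-Recall against Fear-Only, 44 for Fear-Only against Context-Only, 639, 710 and 320 for Fear-Recall, Fear-Only and Context-Only against Homecage, 89 for the reporter comparison and 46 for the interaction. Without a filter on low counts, 2 genes were called for Fear-Recall against Context-Only (Cryab and Akr1c18), and 1 each for Fear-Recall against Fear-Only (Cryab), Fear-Only against Context-Only (Akr1c18) and Fear-Recall against Homecage (Cryab). With pos cells alone, 346, 343 and 366 genes were called for Fear-Recall, Fear-Only and Context-Only against Homecage, where 1 Homecage animal remained and was assumed to vary like the other groups, and with reporter-read cells alone 1 gene for Fear-Recall against Fear-Only (Eno1b). Leaving out each animal in turn gave 0 to 1 calls for Fear-Recall against Context-Only and for Fear-Only against Context-Only (Syt3 without Context-Only mouse 3; for the first also Cryab without either Homecage mouse), 0 to 8 for Fear-Recall against Homecage (8 without Homecage mouse 3) and 0 to 303 for the interaction. With mouse number as a replicate block, 0 genes were called in each of the 6 group comparisons, and the Fear-Recall minus Context-Only difference in the share of Sst cells was -0.445 points (exact sign-flip test, p = 0.875). The block changed no other call. Over members with Sst at 10 CPM or more, 0 genes were called in each of the 6 group comparisons.

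The Fear-Recall minus Context-Only share was -2.97 points with pos cells alone, and 0.466 to 5.90 leaving out each animal. It was 5.03 points over members with Sst at 10 CPM or more. The pos minus neg share was 1.24 points with all cells as the denominator and -5.65 to -1.68 leaving out each animal. The Sst minus other difference in reporter reads was -9.28 points at 5 or more reads, -2.96 after thinning, -5.10 against the Pvalb type and -0.101 to 8.35 leaving out each animal, lowest without Fear-Only mouse 2. The log2 fold change of Ramp1 in Fear-Recall against Context-Only was 5.83 with a z-score margin of at least 0.5 and 5.59 with Sst at 10 CPM or more. In Fear-Only against Context-Only, Tmem107 was at 0.13 with reporter-read cells alone, and Ppm1l at 0.20 with at least 10 cells per sum, 0.23 with reporter-read cells alone, and -4.25 to 0.28 leaving out each animal, highest without Context-Only mouse 2. The cause of these shifts was not tested. At least 10 cells per sum left no Homecage animal, so those comparisons were not run. Over all alternatives, DESeq2 included, 1368 values of single genes were unchanged. Most of these genes were chosen for small p or extreme ratio in the same data, and the alternatives share most animals. A kept sign is therefore no independent check. Fold changes of genes with a group all at 0 were not counted. A further 44 passed the adjusted threshold, 16 log2 ratios moved by 1 SD or more, and 6 fold changes changed sign. Unchanged means the same sign and no such passing for a fold change. For a log2 ratio to other inhibitory sums, which has no threshold, it means a shift under 1 SD between animals.

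With 2 Context-Only and 2 Homecage sums, and as few as 6 cells in a sum, few animals stand behind each difference. The intervals are on numbers of cells and cover counting error only, without the spread between animals. Read counts carry no molecular identifiers.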

Other observations

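Sst reads outside the members were sparse. In 20 inhibitory cells of other types with an Sst read the median was 66.9 CPM and the highest 2502.68 CPM, and 4 of these were Pvalb-type cells. Among 2341 excitatory cells 65 had an Sst read, at most 346 CPM, and no inhibitory cell outside the members reached the members' median.

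Calb2, the calretinin gene and a marker of the Vip-type rule, divided pos-sorted members with Sst at 10 CPM or more by reporter reads. Of those with Calb2 at 10 CPM or more, 25 of 27 had a reporter read (92.6%), against 24 of 36 without (66.7%). The same splits by Chodl, Myh8, Crh, Calb1, Npy and Nos1 were narrower, the widest being Nos1 at 82.8% against 73.5%. The Calb2 split was noticed in the data, pools animals whose reporter frequency differed, and carries no test.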
